A study of Mus musculus with 16 samples.

Results

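A set of 10 genes that phagocytes use to handle lipid and lysosomal material was followed in the mouse hippocampus: Cd68, Cd63, Cd9, Lyz1, Lyz2, Lpl, Apoe, Gpnmb, Lgals3 and Spp1. Members were found by gene symbol in the annotation of the array, and every probe set carrying exactly 1 of these symbols was taken. Of the 10 genes, 8 had a probe set, 12 in all among the 45037 probe sets of the array, and 10 of the 12 were bright enough to be tested. Cd63 and Spp1 were matched to no probe set through the annotation used here and were not analysed here. The dim probe sets that were not tested were 1 of 3 for Lyz1 and 1 of 2 for Gpnmb.

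The 16 Affymetrix Mouse Genome 430 2.0 arrays each held hippocampal RNA pooled from 3 to 4 mice of 1 genotype, age and sex, so a replicate is a pool, and all mice are given the strain C57BL/6J. VP16-CREB is the transcription factor CREB joined to a viral activation domain, which makes it constantly active. A-CREB is a dominant negative protein that binds CREB and keeps it off DNA. The VP16-CREB mice (tetO-VP16-CREB C57BL/6J) and their wild type control littermates were raised on doxycycline (dox). Dox was then withdrawn for 3 weeks, up to 6 weeks of age (3 pools each), or for 1 week, up to 3 weeks of age (2 pools each). The A-CREB mice (TetO-A-CREB-95 C57BL6 F1/J) and their wild type control littermates, 6 weeks old, had never received dox (3 pools each). The design calls the mice bitransgenic, but the labels name only the tetO responder. In published work on such lines the activator of the responder is driven by the Camk2a promoter, which is active in excitatory neurons of the forebrain.

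Values are intensities scaled by the authors, on a linear scale, and the median over all probe sets and arrays was 99.1. The 6 arrays of the cohort at 3 weeks off dox stood apart, with array medians of 118.9 to 129.3 against 75 to 93.2 on the other 10, so each transgenic group was compared only with the littermates of its own cohort. A Creb1 probe set (1421582_a_at) checked the VP16-CREB labels. It read 1097 to 1266 in the VP16-CREB pools at 3 weeks against 32.2 to 67.3 in controls, and 735 and 991 against 5.38 and 36.4 at 1 week. The Creb1 probe set 1452529_a_at was higher too (log2 2.27 and 2.81), whereas 1423402_at, 1428755_at and 1452901_at were not called. In A-CREB pools 1421582_a_at read 20.3 to 74.3 against 29.6 to 85.1 in controls, so it could not check the A-CREB labels. Replicate 1 of both groups of the A-CREB cohort was male, with Xist at 34.5 in the control and 63.4 in the A-CREB pool. Replicate 2 of the A-CREB controls had Xist at 3611 together with the Y-linked Eif2s3y at 86.5 and Kdm5d at 53, which goes against a pool of 1 sex. The other 13 pools had Xist at 3920 or more and Eif2s3y at or below 23.7.

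Microglia are the resident phagocytes of the brain. When they take up dying cells, myelin or lipid they change from a homeostatic state to one known as disease-associated, in which genes of lysosomes, lipid transport and tissue repair are raised. The proteins encoded by the 10 genes sit along that route: CD68, CD63 and GPNMB in lysosomal and related membranes, CD9 at the cell surface, lysozymes and galectin-3 among secreted and phagosomal proteins, lipoprotein lipase and apolipoprotein E in lipid traffic, and osteopontin, the product of Spp1, outside the cell. In the healthy hippocampus Apoe is mainly a gene of astrocytes and Lpl is also expressed by neurons, whereas Cd68 and Lyz2 are largely genes of the myeloid lineage. In tissue RNA, fewer cells of a type and less RNA per cell cannot be told apart.

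Of the 8 genes measured, 6 had a probe set that rose after 3 weeks of VP16-CREB. For Lyz1 these were 2 probe sets that may also read Lyz2, and its other probe set was too dim to be tested, so a rise of Lyz1 itself is not settled. Lysozyme transcripts had the largest differences, 10.8-fold for Lyz2 and 15.1-fold for the brightest Lyz1 probe set, followed by Cd68 (6.65-fold), Gpnmb (4.67-fold), Lgals3 (4.38-fold) and Cd9 (3.55-fold). The controls of Gpnmb and Lgals3 were below the medians of their arrays, so the size of their folds is uncertain. The lipid genes Lpl and Apoe differed by 1.28-fold and 1.23-fold at their brightest probe sets and did not pass the test. After 1 week Cd68 passed (3.59-fold), and in A-CREB mice no member did. Folds are of the intensity plus a pseudocount of 10, and a call means an adjusted p under 0.05 in limma's moderated test, with Benjamini-Hochberg adjustment over 27044 probe sets.

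**Figure D1:**
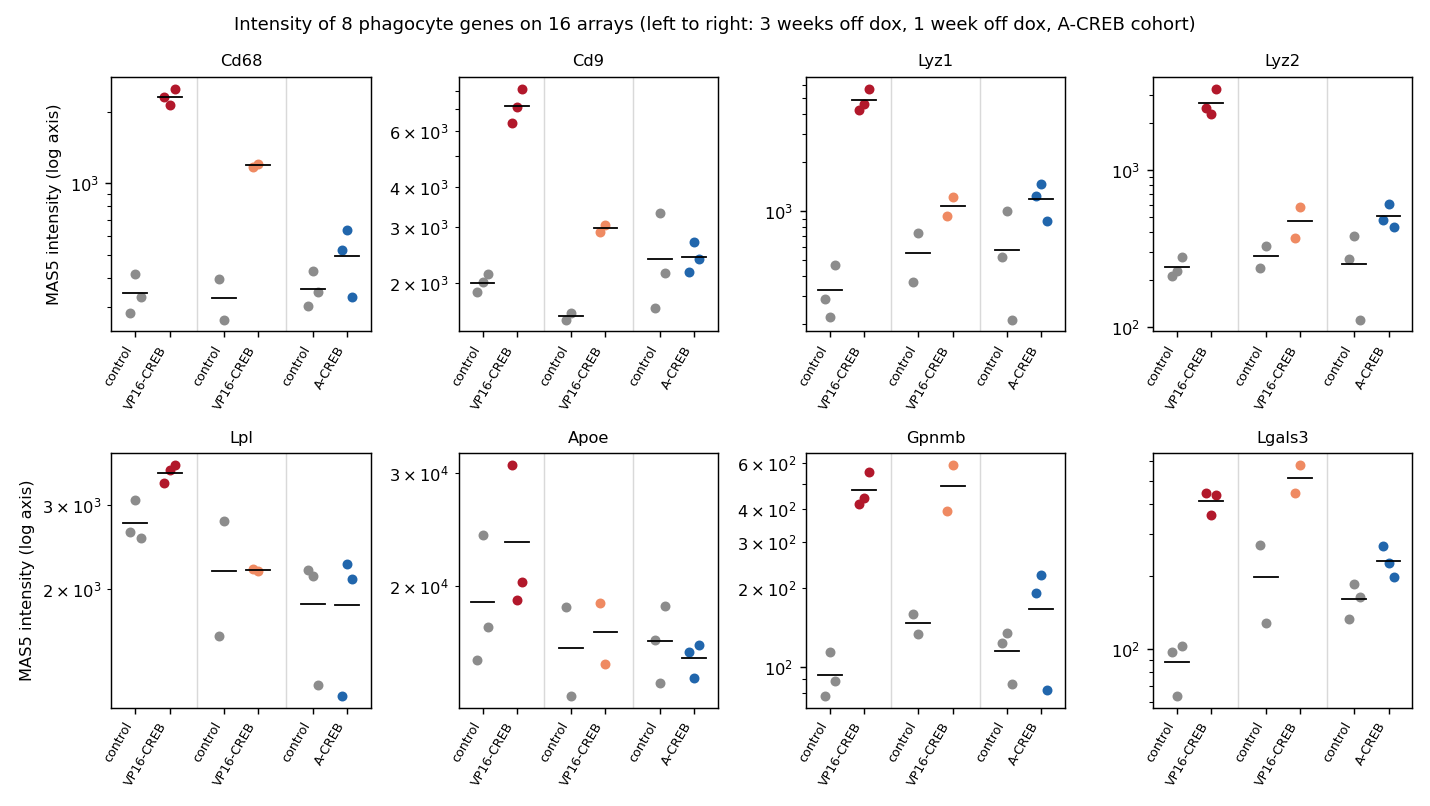
Intensity (log axis, a separate range in each panel) of the brightest tested probe set of 8 genes, with 1 point per pool and a bar at the group mean, for VP16-CREB at 3 weeks off dox, VP16-CREB at 1 week off dox and A-CREB, each beside its control littermates. The VP16-CREB pools at 3 weeks lie clear of their controls for Cd68, Cd9, Lyz1, Lyz2, Lpl, Gpnmb and Lgals3 and overlap them for Apoe.

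Cd68 (chr11:69664213-69666170, GRCm38) encodes macrosialin, a heavily glycosylated protein of the lysosomal membrane of phagocytes. At 3 weeks its intensity was 283, 415 and 331 in the control pools and 2301, 2142 and 2500 in the VP16-CREB pools. All 3 VP16-CREB pools were far above all 3 controls, with no overlap. The means were 343 ± 66.4 (SD, n = 3) and 2314 ± 179 (SD, n = 3), and the log2 difference was 2.73 (SE 0.23, 95% interval 2.23 to 3.24, adjusted p = 1.18e-05). A period of 1 week off dox gave 393 and 266 in the control pools and 1169 and 1207 in the VP16-CREB pools. Both VP16-CREB pools were again above both controls. That difference was 1.84 on the log2 scale (SE 0.29, 95% interval 1.23 to 2.46, adjusted p = 0.0164), and Cd68 was the 1 member probe set called at 1 week. The call was lost without control replicate 2 (log2 1.57, adjusted p = 0.134) and without either VP16-CREB pool (adjusted p of 0.136 and 0.0941), and with the replicate number as a block (adjusted p = 0.0687). In the A-CREB cohort Cd68 was 304, 425 and 348 in controls and 523, 633 and 330 in A-CREB pools. Replicate 3 of A-CREB lay among the controls and the other 2 pools above them, and the difference of 0.42 (95% interval -0.09 to 0.92, adjusted p = 1) was not called.

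Cd68 also had the motif matches found among the promoters of the measured members, so its upstream window is shown. The 250 bases before its RefSeq start (GRCm38.p6, chr11:69666171-69666420, minus strand) read 5′ to 3′ as follows, with capitals marking TGANTCA, the letters of an AP-1 site, at 149 and 24 bases before the start, and CGTCA, the reverse complement of TGACG, at 92 bases before it.
Cd68: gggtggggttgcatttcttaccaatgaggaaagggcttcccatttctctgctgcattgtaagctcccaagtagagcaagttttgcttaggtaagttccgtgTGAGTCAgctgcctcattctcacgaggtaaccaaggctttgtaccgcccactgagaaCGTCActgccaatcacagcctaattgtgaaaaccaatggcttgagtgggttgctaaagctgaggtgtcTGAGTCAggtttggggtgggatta
TGACG is the short form of the cAMP response element that CREB binds, and it is contained in the full element TGACGTCA. Searched on both strands over 32851 RefSeq windows of 250 bases, TGACG occurred in 17.8%, TGACGTCA in 1.55% and TGANTCA in 6.75%. RefSeq windows were given for 7 of the 8 measured genes (9 windows), and Lpl had none. Of these 9 windows, 1 held TGACG and 1 held TGANTCA, both that of Cd68, and 0 held TGACGTCA. The E-box CACGTG of the TFE and MITF factors (6.02% of all windows), the M-box TCATGTG (3.25%) and the PU.1 site GAGGAAGT (2.44%) were in 0 of the 9. A match is a run of letters and no measure of binding.

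Cd9 (chr6:125460266-125494760) encodes a tetraspanin, a membrane protein with 4 transmembrane segments that organises other proteins at the cell surface and in exosomes. At 3 weeks it read 1877, 2010 and 2133 in controls and 6335, 7101 and 8114 in VP16-CREB pools. The groups did not overlap, and the spread within each was small beside the gap between them. Mean intensities were 2006 ± 128 and 7183 ± 892 (SD, n = 3 each), a log2 difference of 1.83 (SE 0.20, 95% interval 1.39 to 2.27, adjusted p = 0.000105). The pools at 1 week read 1537 and 1613 in controls and 2899 and 3035 in VP16-CREB, also without overlap. This 1.88-fold difference (log2 0.91, 95% interval 0.37 to 1.45) did not pass (adjusted p = 0.296). Among A-CREB pools and their controls Cd9 was 1669, 3310 and 2149 in controls and 2173, 2680 and 2374 in A-CREB pools, which lay within the range of the controls. The highest of these values belonged to control replicate 2, the pool with both Xist and Y-linked signal, and the difference was 0.07 with it and 0.34 without it (adjusted p of 1 and 0.871).

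The lysozyme genes encode enzymes that split the peptidoglycan of bacterial walls and are stored in the granules and phagosomes of myeloid cells. Lyz2 (chr10:117277541-117282272) is the lysozyme of macrophages, and Lyz1 (chr10:117287795-117292868), classically the lysozyme of Paneth cells in the intestine, lies 5522 bases away. The genes are close copies, so how far their probe sets read each other is uncertain, and 2 of the 3 Lyz1 probe sets carry the suffix _x_at, which the manufacturer gives to sets with probes that also match other transcripts. The last 100 bases before each start (RefSeq, GRCm38.p6) are set side by side to show how alike the genes are just upstream, at chr10:117292869-117292968 for Lyz1 and chr10:117282273-117282372 for Lyz2, both on the minus strand and 5′ to 3′. Capitals mark the positions at which the sequences differ.
Lyz1: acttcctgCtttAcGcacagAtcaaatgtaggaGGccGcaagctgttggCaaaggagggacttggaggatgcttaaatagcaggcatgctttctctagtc
Lyz2: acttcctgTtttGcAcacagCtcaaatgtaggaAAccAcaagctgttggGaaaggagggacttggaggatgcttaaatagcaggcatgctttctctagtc
Of these 100 bases 92 are identical, and over the 250 bases before the start 152 are identical (60.8%, compared without gaps). Such bases lie outside the transcripts, so they do not show how far the probe sets read each other. Transcript and probe sequences were not compared.

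Lyz2 read 211, 226 and 280 in controls at 3 weeks and 2484, 2286 and 3299 in VP16-CREB pools. Every VP16-CREB pool was several times every control. The means were 239 ± 35.8 and 2690 ± 537 (SD, n = 3 each), and the log2 difference was 3.43 (SE 0.34, 95% interval 2.69 to 4.17, adjusted p = 4.11e-05). At 1 week the controls read 238 and 329 and the VP16-CREB pools 370 and 578. Both pools were above both controls by a narrow margin, and the difference of 0.70 (95% interval -0.20 to 1.61, adjusted p = 1) was not called. It ran from 0.39 without VP16-CREB replicate 2 to 1.02 without VP16-CREB replicate 1. In A-CREB mice and littermates Lyz2 was 270, 378 and 111 in controls and 483, 603 and 431 in A-CREB pools. All 3 A-CREB pools were above all 3 controls, by 2.16-fold on average (log2 1.11, 95% interval 0.37 to 1.85), yet the adjusted p was 1. Control replicate 3 was the lowest pool of the cohort, and without it the log2 difference was 0.63; without control replicate 2 it was 1.47.

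The brightest Lyz1 probe set, 1436996_x_at, read 288, 221 and 464 in controls at 3 weeks and 4225, 4620 and 5714 in VP16-CREB pools, a log2 difference of 3.92 (SE 0.45, 95% interval 2.94 to 4.89, adjusted p = 0.000141). The groups were separated by a wide gap. The second probe set, 1439426_x_at, read 99.4, 113 and 184 in controls and 1009, 2796 and 4824 in VP16-CREB pools. These VP16-CREB pools were all above the controls but spread over a wide range, with replicate 1 lowest. Its difference of 4.12 (SE 0.49, adjusted p = 0.000174) became 4.74 without that pool and 3.62 without replicate 3, and it was called both times (adjusted p of 3.97e-05 and 0.000867). The third probe set, 1450822_at, was dim on every array: it read 14.6, 9.75 and 39.9 in controls and 5.18, 33.1 and 11.8 in VP16-CREB pools at 3 weeks, and from 2.92 to 41.1 on the other 10 arrays. It was the 1 Lyz1 probe set without the _x_at suffix, and it did not follow the other 2.

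**Figure D2:**
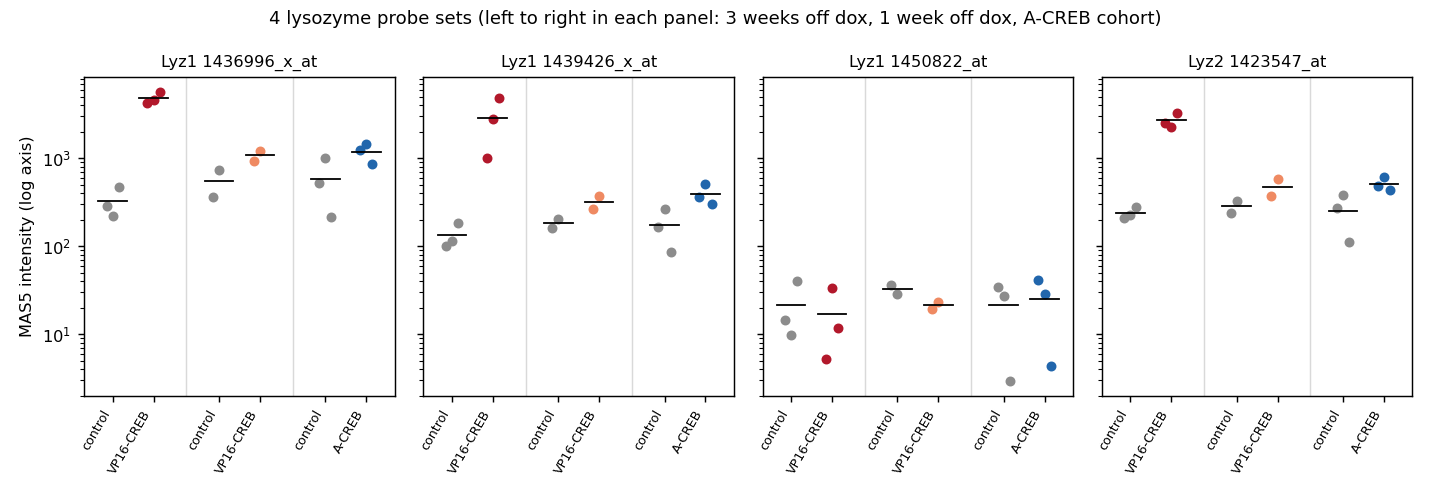
Intensity (shared log axis) of the 3 Lyz1 probe sets and the Lyz2 probe set, with 1 point per pool and a bar at the group mean, in 6 groups. The 2 _x_at probe sets of Lyz1 and Lyz2 are high in the VP16-CREB pools at 3 weeks, while Lyz1 1450822_at stays at or below 41.1 on every array.

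At 1 week 1436996_x_at read 366 and 734 in controls against 936 and 1217 in VP16-CREB pools, and 1439426_x_at read 162 and 206 against 265 and 375. Neither pair of groups overlapped, and neither difference (log2 1.03 and 0.76, adjusted p = 1 for both) was called. Leaving out the lower control pool (replicate 1) moved the first to 0.53 and leaving out the higher (replicate 2) to 1.52, and the second ran from 0.51 to 1 with a pool left out. In the A-CREB cohort 1436996_x_at was 519, 1005 and 214 in controls against 1237, 1464 and 866, where the lowest A-CREB pool was below the highest control. There 1439426_x_at was 166, 263 and 86.8 against 364, 507 and 304, with no overlap. The log2 differences were 1.25 (95% interval 0.28 to 2.22) and 1.23 (95% interval 0.19 to 2.28), and without control replicate 3 they were 0.68 and 0.84.

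Gpnmb (chr6:49036518-49058182) encodes a transmembrane glycoprotein of lysosomes and melanosomes that is raised in lipid-laden macrophages. Its tested probe set, 1448303_at, read 77.6, 114 and 88.8 in controls at 3 weeks and 419, 440 and 557 in VP16-CREB pools. The groups did not overlap, although the controls were below the medians of their own arrays (118.9 to 124.8), where MAS5 values are noisy. The means were 93.5 ± 18.8 and 472 ± 73.8 (SD, n = 3 each), a log2 difference of 2.22 (SE 0.31, 95% interval 1.56 to 2.89, adjusted p = 0.000648). After 1 week the controls read 160 and 134 and the VP16-CREB pools 393 and 590. Both VP16-CREB pools were above both controls, at a mean of 491 ± 139 (SD, n = 2), and the 3.14-fold difference (log2 1.65, 95% interval 0.84 to 2.46) was not called (adjusted p = 0.136). In A-CREB mice Gpnmb was 192, 225 and 81.7 against 124, 135 and 85.9 in controls, so 2 pools were above and 1 below all controls (log2 0.41, adjusted p = 1). The other probe set, 1439345_at, stayed between 2.26 and 54.3 on all 16 arrays and was not tested.

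Lgals3 (chr14:47373860-47386167) encodes galectin-3, a lectin that binds galactosides on glycoproteins and gathers at damaged lysosomes. It read 96.8, 63.6 and 103 in controls at 3 weeks and 445, 360 and 434 in VP16-CREB pools. These controls too were below the medians of their own arrays. All VP16-CREB pools were well above the controls, and the log2 difference was 2.13 (SE 0.25, 95% interval 1.59 to 2.67, adjusted p = 0.000177). After 1 week the controls read 269 and 128, far apart from each other, and the VP16-CREB pools 443 and 580. The 2.63-fold difference (log2 1.40, 95% interval 0.73 to 2.06, adjusted p = 0.114) was not called; without control replicate 1 it was 1.91 and was called (adjusted p = 0.0347), and without control replicate 2 it was 0.89. In the A-CREB cohort the controls read 133, 186 and 164 and the A-CREB pools 267, 227 and 199. The A-CREB pools were all above the controls by a small step, with a log2 difference of 0.50 (95% interval -0.04 to 1.04, adjusted p = 1). Gpnmb and Lgals3 passed the filter on dim probe sets through control pools as well, 5 for Gpnmb and 6 for Lgals3 being above the median of all values (99.1).

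Lpl (chr8:68880555-68906932) encodes lipoprotein lipase, which releases fatty acids from lipoproteins. Its brighter probe set, 1415904_at, read 2624, 3069 and 2555 in controls at 3 weeks and 3327, 3548 and 3631 in VP16-CREB pools. The pools did not overlap, but the step was small, 1.28-fold (log2 0.35, 95% interval -0.23 to 0.94, adjusted p = 0.7). The other probe set, 1431056_a_at, read 524, 561 and 460 against 1011, 714 and 876, again without overlap. Its difference was 1.66-fold (log2 0.73, SE 0.23, 95% interval 0.24 to 1.22, adjusted p = 0.115), which passed when only the 6 arrays of that cohort were fitted (adjusted p = 0.0497) or when arrays were weighted (adjusted p = 0.00544). At 1 week the VP16-CREB pools (2202 and 2178 at 1415904_at, 387 and 415 at 1431056_a_at) lay between the controls (1591 and 2768, 293 and 505). The A-CREB groups overlapped, at 1192, 2254 and 2091 against 2189, 2126 and 1258 in controls at 1415904_at and at 235, 360 and 421 against 407, 415 and 367 at 1431056_a_at.

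Apoe (chr7:19696244-19701310) encodes the main lipid carrier protein of the brain, and its probe set was by far brighter than the array median. It read 15366, 24015 and 17287 in controls at 3 weeks and 30825, 19053 and 20309 in VP16-CREB pools. VP16-CREB replicate 1 was the highest pool, and the other 2 lay within the controls' range. The log2 difference was 0.30 (95% interval -0.17 to 0.77, adjusted p = 0.675), and without that pool it was 0.08. At 1 week Apoe read 18562 and 13527 in controls and 18862 and 15144 in VP16-CREB pools, and in the A-CREB cohort 16493, 14166 and 18643 in controls and 15847, 14420 and 16236 in A-CREB pools. Both of these comparisons overlapped, with differences of 0.09 (95% interval -0.49 to 0.67) and -0.08 (95% interval -0.55 to 0.40) on the log2 scale. The intervals for Apoe thus leave room for a change of up to 0.77 at 3 weeks, and a p that misses the threshold does not show that the levels were equal.

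At 3 weeks, 7 of the 10 tested member probe sets (6 of 8 genes, Lyz1 by its _x_at probe sets) were called higher and 0 lower. Over all probe sets 3.28% were called higher and 0.651% lower, and by gene at the brightest probe set 4.59% and 0.864%. In 9 of the 10 the VP16-CREB pools were all above the controls, which held for 14.9% of all probe sets. The median log2 difference of the 8 genes was 2.18, against -0.01 over all probe sets tested. Each of the 7 calls held in 16 of 16 alternative settings, with log2 differences between 1.74 and 4.74.

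At 1 week, 1 of 10 was called higher, against 0.218% of all probe sets and 0.291% of genes. Among markers of other cells 1 of 12 astrocyte genes was called higher at 1 week, Gfap (7378 against 2188, 3.48-fold, adjusted p = 0.0229). From the monocyte list 1 of 4 was called, S100a4 (517 against 102, 4.73-fold, adjusted p = 0.0304). The median log2 difference of each of these lists was 0.14. Of 14 microglia markers 0 were called, but their median was larger, 0.60, and their sum was 17216 to 21099 against 10272 to 14931. The summed astrocyte markers were 90647 to 114181 against 82033 to 91202 and the summed monocyte markers 3041 to 3859 against 2550 to 3196. The monocyte sum mainly reads its brightest gene, Nr4a1 (1770 against 1714), and is no measure of monocytes. The part of any of these cells in the Cd68 value was not tested. In 7 of 10 both VP16-CREB pools were above both controls, against 15.7% of all, and the median over the 8 genes was 0.97 against 0.02. An unadjusted p under 0.05 was reached by 4 of 10 (Cd68, Cd9, Gpnmb and Lgals3), against 5.27% of all. The lysozymes, which had the largest differences at 3 weeks, were not among these 4.

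In A-CREB mice 0 of 10 were called by limma, as were 0% of all probe sets (0% of genes higher and 0% lower). An unadjusted p under 0.05 was reached by 3 of 10, the 2 Lyz1 probe sets and Lyz2, against 4.33% of all. The Lyz1 probe sets may also read Lyz2, so these 3 may be 1 transcript. The count was 1 without control replicate 3 or without A-CREB replicate 2, and 5 without A-CREB replicate 3. The A-CREB pools were all above the controls for 3 of 10 (Lyz1 1439426_x_at, Lyz2 and Lgals3), against 3.54% of all. The median over the 8 genes was 0.41 against 0.

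**Figure D3:**
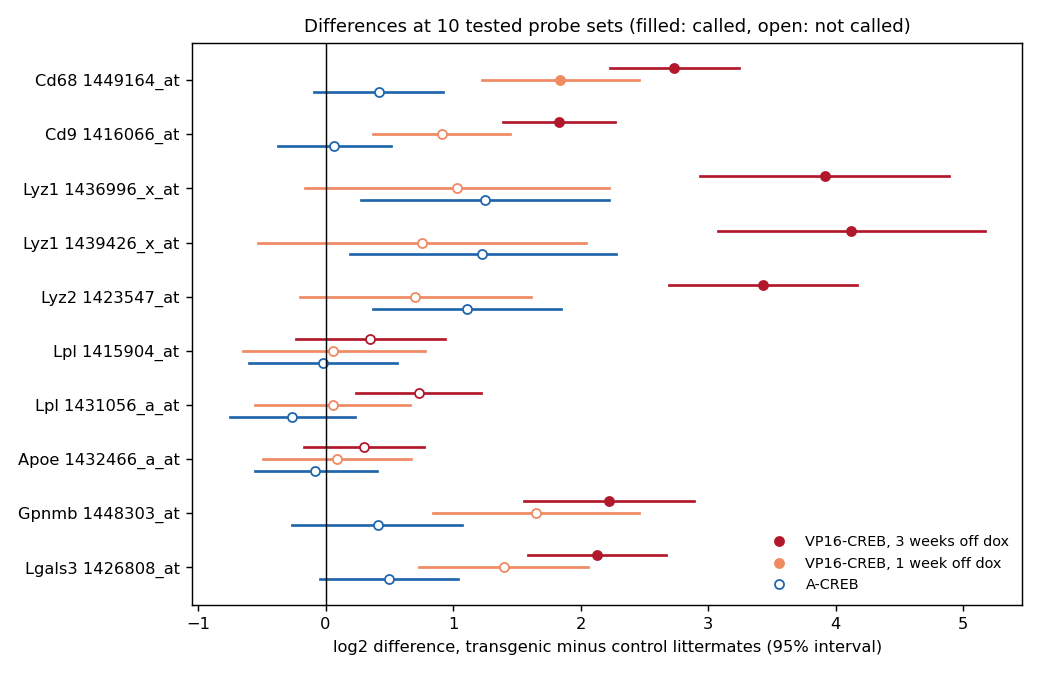
Log2 difference between transgenic and control pools (x axis) with its 95% interval for the 10 tested probe sets (rows) in 3 comparisons, filled points being called. The VP16-CREB intervals at 3 weeks start at 1.39 or higher for the 7 called probe sets, and those of Lpl 1415904_at and Apoe cross 0.

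The difference between effects was tested as well. The rise at 3 weeks exceeded the A-CREB difference by 2.32 log2 for Cd68 (SE 0.33, adjusted p = 0.00416), by 1.76 for Cd9 (SE 0.29, adjusted p = 0.0105) and by 2.32 for Lyz2 (SE 0.48, adjusted p = 0.042), so that 3 of 10 were called, against 0.828% of all probe sets. The call for Lyz2 was lost in 14 of 22 alternative settings, and without the A-CREB control pool of mixed signal it was 1.96 (adjusted p = 0.0859), whereas those for Cd68 and Cd9 held in 22 of 22. Both Lyz1 probe sets (2.67 and 2.89), Gpnmb (1.82) and Lgals3 (1.63) had adjusted p of 0.0529 to 0.0822 and were not called.

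Between 3 weeks and 1 week of VP16-CREB, 0 of 10 differences were called, against 0% of all probe sets called higher and 0.0037% lower (1 probe set), with 5 of 10 at an unadjusted p under 0.05 against 4.99% of all. These 5 were Lyz1 at both tested probe sets (3 weeks minus 1 week, log2 2.89 and 3.37), Lyz2 (2.73), Cd9 (0.92) and Cd68 (0.89). Both Lyz1 probe sets may also read Lyz2, so the lysozyme values among these 5 may be 1 transcript. For Gpnmb and Lgals3 the difference was 0.57 (95% interval -0.47 to 1.62) and 0.73 (95% interval -0.12 to 1.59). These mice were also 6 and 3 weeks old. The arrays of the cohort at 3 weeks also stood apart in their medians (118.9 to 129.3 against 75 to 93.2 on the other 10). Time off dox, age and this difference between arrays cannot be told apart.

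The members were then set against microglia as a whole, since 12 of 14 microglia markers (such as Aif1, Csf1r, Cx3cr1 and Tmem119) also rose at 3 weeks, with a median log2 difference of 1.20. The other 2 were P2ry12 (0.42, adjusted p = 0.801) and Slc2a5 (0.56, adjusted p = 0.322). The summed intensity of these 14 markers was 9469 to 9831 in controls and 20749 to 27299 in VP16-CREB pools at 3 weeks, 10272 to 14931 against 17216 to 21099 at 1 week (0 of 14 called, median 0.60) and 10651 to 12905 against 11912 to 15920 in the A-CREB cohort (0 of 14, median 0.18). Among single markers the difference at 3 weeks ran from 0.42 to 2.16, the highest being that of Aif1. Expressed as log2 value minus the mean log2 of the 14 markers on the same array, a description with no test, Lyz1 was 2.17 to 2.28 in VP16-CREB pools at 3 weeks and -0.83 to 0.08 in controls. Lyz2 (1.15 to 1.51 against -0.98 to -0.63) and Cd68 (1.06 to 1.40 against -0.58 to 0.05) were likewise higher relative to the markers, in every pool. The mean shift was 2.67 for Lyz1, 2.19 for Lyz2, 1.49 for Cd68, 0.98 for Gpnmb, 0.89 for Lgals3 and 0.59 for Cd9. The log2 differences of Lgals3 (2.13) and Cd9 (1.83) themselves lay within the range of the single markers. Their shifts therefore depend on which markers are averaged. The value of Lyz1 is that of an _x_at probe set that may also read Lyz2.

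Lpl and Apoe came out lower on this scale, although their own log2 differences at 3 weeks were 0.35 and 0.30 and were not called. Because the markers rose, any gene that stays level shifts down on this scale, so the negative shifts show no fall of either gene. Relative to the markers Lpl was 1.62 to 1.93 in VP16-CREB pools and 2.52 to 2.91 in controls, a shift of -0.89, and Apoe was 4.10 to 5.14 against 5.13 to 5.87, a shift of -0.94 with ranges that just touched. At 1 week the relative shift was 1.20 for Cd68, 1.01 for Gpnmb and 0.75 for Lgals3, but 0.06 for Lyz2 and 0.38 for Lyz1. With a pool left out, these lysozyme shifts ran from -0.29 to 0.41 for Lyz2 and from -0.23 to 0.99 for Lyz1, so their direction rests on single pools. The shift of Lgals3 ran from 0.36 (without control replicate 2) to 1.14 (without control replicate 1). In the A-CREB cohort the relative shift was 1.10 for Lyz1 and 0.97 for Lyz2, which became 0.61 and 0.57 without control replicate 3, and between -0.22 and 0.35 for the other 6 genes.

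**Figure D4:**
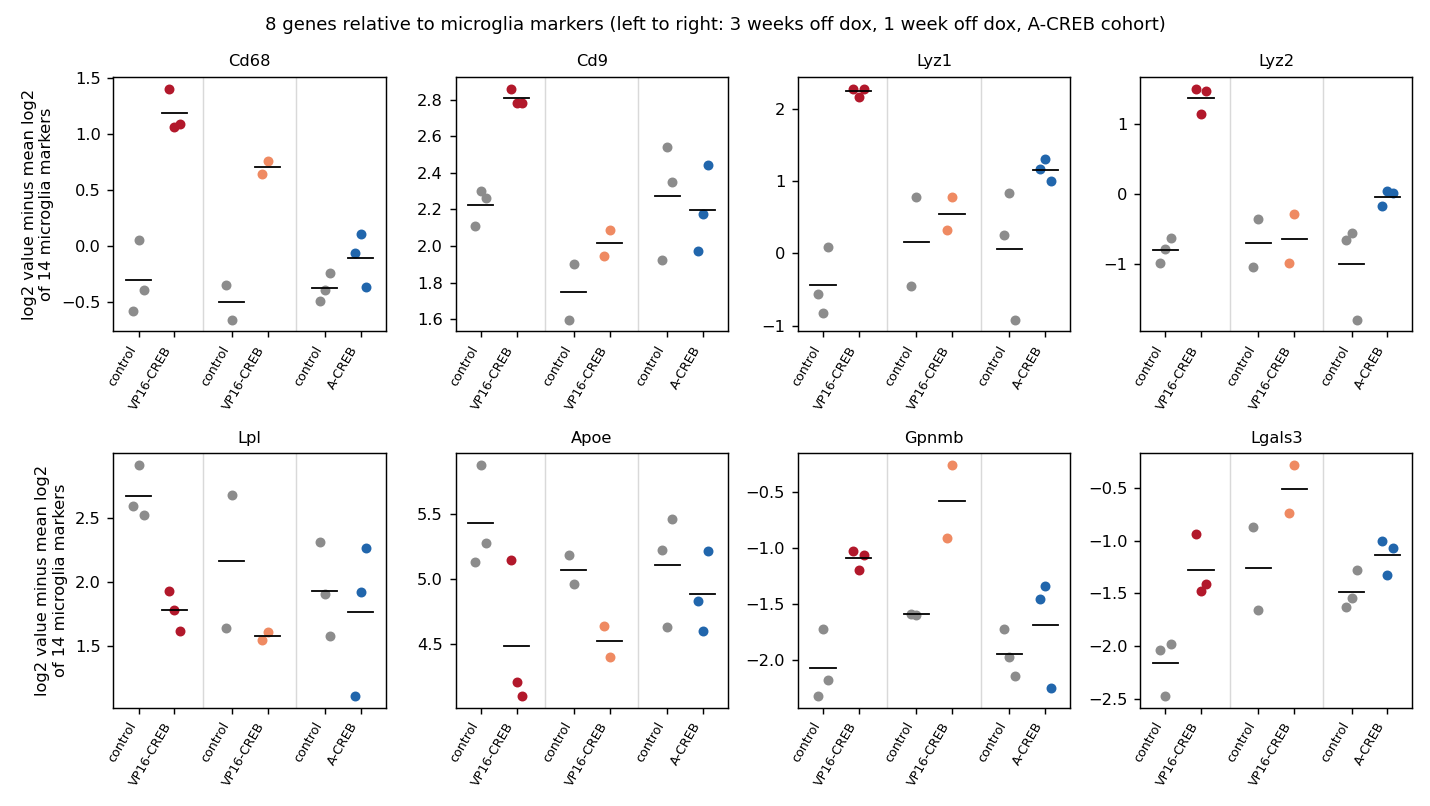
Log2 value of each of 8 genes minus the mean log2 value of 14 microglia markers on the same array (y axis, a separate range in each panel), with 1 point per pool and a bar at the group mean. At 3 weeks off dox the VP16-CREB pools are above their controls for Cd68, Cd9, Lyz1, Lyz2, Gpnmb and Lgals3, and the mean shifts are -0.89 for Lpl and -0.94 for Apoe. A gene that stays level shifts down on this scale where the markers rise. The log2 differences of Cd9 and Lgals3 at 3 weeks lie within the range of the single markers.

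Other cells can carry the same transcripts. At 3 weeks the summed markers of border macrophages were 987 to 1036 in VP16-CREB pools against 712 to 790 in controls (1 of 7 measured genes rose, Ms4a7). For monocytes the sums were 3961 to 4534 against 3645 to 4090 (1 of 4 rose, S100a4, at 664 against 84.9). The brightest gene in this sum, Nr4a1, read 2075 against 2558, Fn1 893 against 710 and Vcan 451 against 363, none of them called. The sum thus mainly reads Nr4a1 and is no measure of monocytes. Another 3 monocyte genes were too dim to be tested, and they went both ways. Ccr2, which defines inflammatory monocytes, read 37.8 against 56.5, Chil3 6.7 against 11.8 and Plac8 73.6 against 29.9. Of 8 neutrophil genes 7 were too dim to be tested, and their sum was 198 to 278 against 159 to 278. Of 8 T and NK cell genes 7 were too dim, and their sum was 339 to 401 against 174 to 226, with Cd3e at 66.1 against 28.7. Astrocyte markers summed to 102751 to 131606 against 81295 to 97979 (3 of 12 rose, Gfap, Aqp4 and Mlc1), with Gfap at 13832 against 2009. Of 11 neuron markers 1 fell, Prox1, and the sum was 79583 to 102525 against 92924 to 117474. Oligodendrocyte markers (0 of 9 called), those of their precursors (0 of 7), endothelium and pericytes (0 of 10) and choroid plexus (0 of 8, sum 6983 to 26933 against 15294 to 37411) completed the lists. The part of any of these cells in the members' values was not tested.

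In the same pools, the genes that work with the members were counted from 9 lists, each gene at its brightest probe set, to be read against the 4.59% of all genes called higher at 3 weeks. Of 29 measured genes of the disease-associated state other than the members, 21 rose and 0 fell (median log2 1.36). Of these 29, 4 (Cst7, Ccl3, Clec7a and Itgax) passed the filter on dim probe sets only through transgenic pools, so that they had to be higher there, and of the other 25, 17 rose. The leukocyte glycoprotein gene Cd52 rose from 162 ± 28.3 to 3321 ± 534 (log2 4.28). Cst7, an inhibitor of lysosomal proteases, read 2963 ± 748 against 12.6 ± 9.34, the chemokine gene Ccl3 599 ± 82.6 against 2.99 ± 0.82 and the glucan receptor gene Clec7a 1609 ± 490 against 35.7 ± 23.9 (SD, n = 3 each). The controls of these 3 were below the array median, where MAS5 values are close to background, so their log2 differences (7.08, 5.55 and 5.29) depend on the pseudocount and are no measure of size. At 1 week 2 of the 29 were called, Clec7a (624 against 49.7, again over dim controls, adjusted p = 0.0195) and Cd52 (2.38, adjusted p = 0.00807). In A-CREB mice 0 of 29 were called, with a median of 0.30.

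For the lysosome, 10 of 28 measured membrane proteins and enzymes rose and 0 fell, with a median of 0.33. The largest were Laptm5, a lysosomal membrane protein of leukocytes (1.96, adjusted p = 0.00187), Gusb, which encodes beta-glucuronidase (1.94, adjusted p = 1.39e-05), Grn, which encodes progranulin (1.71, adjusted p = 0.000181), and the mannosidase gene Man2b1 (1.18, adjusted p = 0.00265). Gusb was also called at 1 week (1.31, adjusted p = 0.0195). The other 6 that rose, the membrane protein gene Lamp2, the cholesterol carrier gene Npc2 and the enzyme genes Hexa, Gla, Ctsa and Naglu, differed by 0.91 to 1.08. Of the factors that switch on lysosomal genes, 0 of 3 measured were called, Tfe3 differing by 0.29 and Mitf by 0.64 (adjusted p of 0.722 and 0.109).

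In lipid handling, 4 of 23 measured genes of lipoproteins and cholesterol rose, with a median of 0.21: Ch25h, which makes 25-hydroxycholesterol (2.78, adjusted p = 1.39e-05), the apolipoprotein gene Apoc1, a neighbour of Apoe on chromosome 7 (1.40, adjusted p = 0.0455), the lysosomal cholesterol carrier gene Npc2 (1.08, adjusted p = 0.0357) and the cholesterol exporter gene Abca1 (0.97, adjusted p = 0.038). Of 11 measured partners of lipoprotein lipase and genes of fatty acid uptake 0 were called, with a median of 0.29. The brightest of these were the fatty acid binding protein genes Fabp5 (0.17) and Fabp7 (0.82, adjusted p = 0.128). Neither lipid list had a gene called at 1 week.

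Among relatives of Cd9, 3 of 15 measured tetraspanin genes rose: the leukocyte tetraspanin gene Cd53 (1.95, adjusted p = 0.00124), Tspan4 (1.04, adjusted p = 0.0186) and Cd151 (0.86, adjusted p = 0.0134). Among relatives and partners of galectin-3, 3 of 5 rose: Lgals3bp, which encodes a galectin-binding glycoprotein (3.05, adjusted p = 0.000174), Lgals9 (1.76, adjusted p = 0.00441) and Lgals1 (1.32, adjusted p = 0.00155). Of 8 measured osteopontin receptors and relatives 2 rose, the hyaluronan and osteopontin receptor gene Cd44 (2.67, adjusted p = 0.000252) and the integrin gene Itgb5 (1.22, adjusted p = 0.00138). Of 9 measured lectin and scavenger receptors 3 rose, Clec7a, the lipopolysaccharide co-receptor gene Cd14 (2.24, adjusted p = 2.59e-05) and Axl, which encodes a receptor for dying cells (1.30, adjusted p = 0.000283). Clec7a and Cd163 of this list passed the filter on dim probe sets only through transgenic pools, and of the other 7, 2 rose. Ch25h, Apoc1, Npc2, Clec7a and Axl stand on more than 1 list. In A-CREB mice 0 genes of any of these 9 lists were called.

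**Figure D5:**
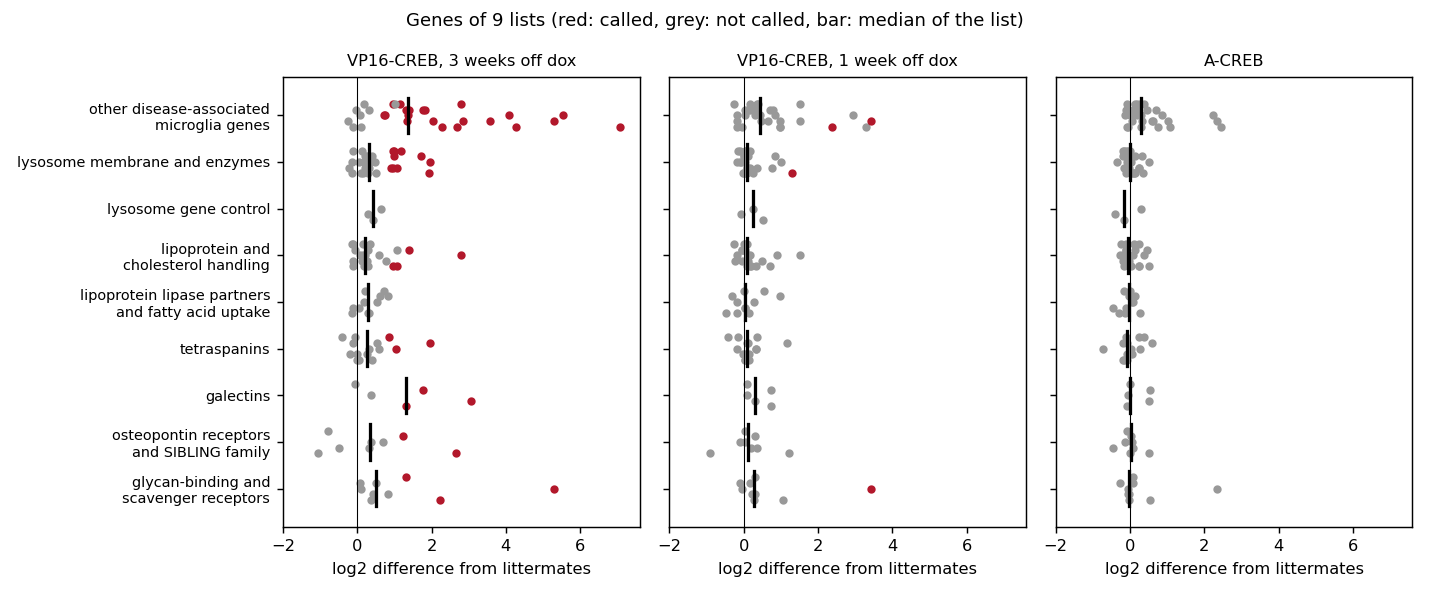
Log2 difference from control littermates (x axis) of each measured gene of 9 lists (rows), with called genes in red, the others in grey and a bar at the median of the list, for VP16-CREB at 3 weeks, VP16-CREB at 1 week and A-CREB. At 3 weeks red points are most frequent among the other disease-associated microglia genes (21 of 29) and the galectins (3 of 5), and the A-CREB panel has 0. Of the 25 disease-associated genes that passed the filter through control pools, 17 are red at 3 weeks.

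How alike the members were was described by the Pearson correlation over the 16 arrays of log2 values minus the mean of their cohort. The arrays of 1 group share a genotype, so the correlation mainly reads the differences between groups. Over the 28 pairs of 8 genes it ran from -0.13 to 0.99 with a median of 0.86. Lyz1 and Lyz2 had the highest value (0.99), followed by Cd68 with Gpnmb (0.97) and with Lgals3 (0.95). Lyz1 stands here for 1436996_x_at, which may also read Lyz2, so this pair may be 1 transcript read by 2 probe sets. Lpl reached at most 0.49 with any member and Apoe at most 0.40.

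Over all genes measured, the profiles most like that of Cd68 were those of H2-K1 (0.986), Fcgr1 (0.982) and Gpr84 (0.981), and those most like Cd9 were H2-K1 (0.977), Irf7 (0.97) and Trem2 (0.969). Lyz2 was most like Tyrobp (0.982), Ctss (0.973) and Igtp (0.969), and Lyz1, at the same _x_at probe set, most like Snx5 (0.975), Tyrobp (0.971) and Ctss (0.969). For Gpnmb the nearest were H2-Q10 (0.977), H2-M3 (0.971) and Ssr4 (0.968), and for Lgals3 Ier3 (0.974), the astrocyte gene Gfap (0.969) and S1pr3 (0.967). Apoe was most like Hagh (0.938), Clu (0.926), which encodes another lipid carrier, and Cst3 (0.909). Lpl was most like Ift74 (0.904), Ddx10 (0.893) and Sema3c (0.893).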

How the data were processed

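Deposited values are the authors' intensities on a linear scale, computed with MAS5 per the submitters' processing notes. Each of the 16 arrays had a mean of 500 once the lowest and highest 2% of its values were dropped, which is a scaling done by the authors before deposit. MAS5 subtracts a mismatch signal, which makes low values noisy. Probe sets were named through the platform annotation, without the 64 control probe sets.

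Analyses used log2 of the intensity plus 10. Probe sets above the median of all values (99.1) on at least 2 arrays were tested (27044, 60% of the array; 12732 genes). All 16 arrays entered 1 model with a coefficient per group in limma 3.58.1 (lmFit and eBayes, two-sided, 10 residual and 3.44 prior degrees of freedom; R 4.3.3, data.table (version 1.17.8)), with Benjamini-Hochberg adjustment over all probe sets tested and calls at an adjusted p under 0.05. The p-values measure the spread between pools, and the number of arrays limits the precision. A gene is given at its tested probe set of highest mean. Figures were drawn with Python 3.11.15 and matplotlib 3.10.9.

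Named genes were all members, up to 4 called genes of largest change at 3 weeks per list (the 2 brightest where none was called) and the 3 genes most correlated with each member. Itgax, the 6 further lysosomal genes and the marker genes named were chosen after their values were seen. The members, lists and markers were chosen with earlier results of these data known. Alternatives were other pseudocounts (none, 25), filters and normalizations, only the arrays compared, a variance trend with robust fit, weights per array, leaving out each array, and a replicate block. The procedure was tested on simulated data.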

Additional observations from a re-analysis of the deposited data

Results flagged for a closer look

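For 3 probe sets the effect of 3 weeks of VP16-CREB differed from that of A-CREB by a test of the difference itself, a contrast of the 2 transgene effects in limma. The difference of effects was 2.32 log2 for Cd68 (adjusted p = 0.00416), where all 3 VP16-CREB pools and 2 of 3 A-CREB pools were above their controls. It was 1.76 log2 for Cd9 (adjusted p = 0.0105), where all 3 VP16-CREB pools and none of the A-CREB pools were above every control. The A-CREB pools (2173, 2680 and 2374) were below only control replicate 2 (3310), the pool of mixed signal. Without that pool the difference of effects for Cd9 was 1.49 (adjusted p = 0.01). For Lyz2 the difference of effects was 2.32 log2 (adjusted p = 0.042), where all 3 pools of both transgenes were above their controls, by 3.43 and 1.11 log2. The cohorts differ also in dox history, in the sex of their pools and in array medians (118.9 to 129.3 at 3 weeks against 75 to 93.2 on the other 10 arrays). The part of these in the differences of effects was not tested.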

How the results depend on the processing

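At 3 weeks the count of 7 member probe sets called higher was 7 in every alternative except only the arrays compared and array weights, which gave 8 by adding Lpl 1431056_a_at (adjusted p of 0.0497 and 0.00544). At 1 week the count of 1 fell to 0 with no filter, with only the arrays compared and with the replicate block, and ran from 0 to 2 with each array left out. For A-CREB it was 0 throughout. Between 3 weeks and 1 week it was 1 with quantile normalization (Lyz2, log2 3.01, adjusted p = 0.0449) and 0 otherwise. Between VP16-CREB at 3 weeks and A-CREB the count of 3 was 7 with quantile normalization, 6 with trend and robust variances, 7 with array weights, 5 with the replicate block, and 2 to 4 with each array left out. The cause of these shifts was not tested.

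The titles number each control pool as a littermate sample but do not state that equal numbers share a litter, and no cohort of 3 pairs had every correlation of same-numbered pools above 0.1: deviations from the group means correlated at -0.16, -0.23 and 0.22 at 3 weeks, 0.15 and 0.15 at 1 week and -0.05, 0.41 and 0.27 in the A-CREB cohort. In 5 of 8 cases this was higher than with any other number (at most 0.34, -0.15 and 0.05 in the 3 cohorts). The 2 cases at 1 week are 1 value given 2 times, since with 2 pools the deviations from the mean mirror each other. In the A-CREB cohort replicate 1 was the male pool of both groups. With the replicate block the probe sets called at 3 weeks over the whole array were 726 higher and 133 lower, against 886 and 176 without it, and Cd68 at 1 week was not called (adjusted p = 0.0687). Without a filter Cd68 at 1 week had an adjusted p of 0.051, and with only the arrays compared 0.278.

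Only differences that were not called changed sign, each with 1 array left out. At 1 week Lpl ran from -0.34 (without control replicate 1) to 0.46 at 1415904_at and from -0.33 (without the same pool) to 0.44 at 1431056_a_at, and Apoe from -0.14 (without control replicate 2; -0.07 without VP16-CREB replicate 1) to 0.32. For A-CREB, Cd9 ran from -0.15 (without control replicate 1; -0.01 without A-CREB replicate 2) to 0.34, Apoe from -0.18 to 0.02 (without control replicate 3), and Lpl 1415904_at from -0.28 to 0.27 (without A-CREB replicate 1; 0.12 and 0.1 without control replicates 1 and 2). For 3 weeks minus 1 week Lpl 1415904_at ran from -0.11 (without the 1 week control replicate 2) to 0.69, and Apoe from -0.02 (without the 1 week control replicate 1; -0.01 without VP16-CREB replicate 1 at 3 weeks) to 0.44. Groups of 2 pools limit the 1 week comparison: once a pool is left out, the remaining one takes its spread from the rest of the arrays. Values near or below the array median are close to background, which limits Gpnmb and Lgals3 in controls.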
